A study of Homo sapiens with 34 samples.

Results

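The 10 genes described here encode the cyclins and cyclin-dependent kinases that act after the D-type cyclins, together with the phosphatases that switch these kinases on: *CCNE1*, *CCNE2*, *CCNA2*, *CCNB1*, *CCNB2*, *CDK1*, *CDK2*, *CDC25A*, *CDC25B* and *CDC25C*. They were taken by symbol from the 6 deposited tables of the series, and all 10 were listed in each table, out of 17587 genes listed in at least 1 table and 13307 listed in all 6. RNA-seq had been done in 34 samples of 3 established human B-cell precursor acute lymphoblastic leukemia (B-ALL) lines. NALM-6 is labelled with the fusion ETV6-PDGFRB, RS4;11 carries MLL-AF4, and the fusion of BV-173 is BCR-ABL. Each line was studied in 4 groups. Cells carried a lentiviral shRNA against *CCND3* or a scrambled shRNA, in a vector that also expresses TagRFP, and were sorted on day 4 after transduction. Other cells of the same line received 1 µM palbociclib, an inhibitor of the kinases CDK4 and CDK6, or DMSO, and were collected after 3 days. Groups held 3 samples, apart from BV-173 with DMSO and NALM-6 with *CCND3* shRNA, which held 2 each. The knockdown arms therefore compare sorted, transduced cells with each other, and the palbociclib arms compare cells that were neither. Each genotype is represented by 1 line, so genotype and line cannot be told apart.

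Cyclins are the regulatory subunits without which a cyclin-dependent kinase is inactive, and their periodic synthesis and destruction orders the cell cycle. Cyclin D with CDK4 or CDK6 starts the phosphorylation of RB1, which frees E2F factors to transcribe E-type cyclins, *CDC25A* and replication genes. Cyclin E with CDK2 then drives entry into S phase, cyclin A acts in S phase and G2, and cyclin B with CDK1 drives mitosis. CDC25 phosphatases remove the inhibitory phosphates that WEE1 and PKMYT1 place on CDK1 and CDK2. Below, *CCNE1*, *CCNE2*, *CDK2* and *CDC25A* are called the G1/S members, and *CCNA2*, *CCNB1*, *CCNB2*, *CDK1*, *CDC25B* and *CDC25C* the G2/M members.

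The promoters are shown because many cell-cycle genes carry short sequence words that are bound by known cell-cycle complexes. E2F words are typical of G1/S genes. The cell cycle homology region (CHR), usually TTTGAA, together with CCAAT boxes is typical of G2/M genes, where it is the landing site of the DREAM and MYB-MuvB complexes. The 140 bases before the transcription start are given for the 5 members with a single start in RefSeq (GRCh38.p14), in the direction of transcription. Capitals mark 4 kinds of word, each searched on both strands. The first is the CCAAT box, which appears as ATTGG where it lies on the other strand. The second is the CHR word TTTGAA. Its variants form the third kind, with CTTGAA for one, TTCGAA for another and the palindrome TTTAAA for the last. The fourth kind holds the E2F words TTTCCCGC, TTTCGCGC, TTTGGCGC and TTTGCCGC. Marked words did not overlap.
CCNE1, chr19:29811851-29811990, plus strand: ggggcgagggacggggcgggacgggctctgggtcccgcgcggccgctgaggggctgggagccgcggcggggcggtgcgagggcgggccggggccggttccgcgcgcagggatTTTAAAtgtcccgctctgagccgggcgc
CDC25A, chr3:48188418-48188557, minus strand: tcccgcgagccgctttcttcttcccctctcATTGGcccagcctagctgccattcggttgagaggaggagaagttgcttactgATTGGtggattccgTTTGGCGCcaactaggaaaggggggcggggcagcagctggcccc
CCNA2, chr4:121823884-121824023, minus strand: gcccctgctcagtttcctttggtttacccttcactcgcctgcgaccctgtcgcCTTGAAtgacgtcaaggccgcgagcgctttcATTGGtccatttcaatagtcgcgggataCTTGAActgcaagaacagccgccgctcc
CCNB1, chr5:69167010-69167149, plus strand: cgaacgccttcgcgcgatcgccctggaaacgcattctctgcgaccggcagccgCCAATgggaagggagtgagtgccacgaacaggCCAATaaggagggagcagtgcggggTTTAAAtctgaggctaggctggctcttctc
CCNB2, chr15:59105006-59105145, plus strand: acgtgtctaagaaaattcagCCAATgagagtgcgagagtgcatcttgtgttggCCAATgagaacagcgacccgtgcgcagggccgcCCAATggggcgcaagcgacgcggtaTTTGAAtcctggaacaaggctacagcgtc

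*CCNB2* held 3 CCAAT boxes in a row and 1 CHR word, whose first base lay 29 bases before the start. *CCNB1* held 2 CCAAT boxes and the variant TTTAAA from base 30 before the start. *CCNA2* held 1 CCAAT box and 2 copies of the variant CTTGAA, the nearer one from base 28 before the start. *CDC25A* was the only one of these 5 with an E2F word, TTTGGCGC, next to 2 CCAAT boxes. *CCNE1* held only TTTAAA, from base 28 before the start. *CDK1*, *CDC25B* and *CDC25C* have several starts and were counted over windows from 250 bases before to 50 after each. *CDK1* held a CCAAT box, the CHR word and an E2F word in both of its windows, *CDC25C* held TTTGAA in 2 of 4, and *CDC25B* held a variant in 2 of 4. No window was given for *CCNE2* and *CDK2*. Over such windows of 27305 genes, 39.7% of genes held a CCAAT box, 18.2% held TTTGAA, 26.1% held a variant and 3.99% held an E2F word. Among the 6 G2/M members these counts were 6, 3, 5 and 1. For comparison, TTTGAA was present in 14 of 18 genes of a list of G2/M phase genes and in 1 of 17 genes of a list of G1/S phase genes, and E2F words were present in 2 of 18 and 11 of 17. The matches are a description of the letters only, and genes with more starts had more chances of a match.

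Values are the authors' level per gene and group, a normalised read level for which the files used here give 1 number per group. Over all genes, the levels of a group summed to between 17810000 and 20756000. No spread between replicate samples could be computed, and the depth of single samples is unknown. The 3 lines therefore served as the replicates, with 1 log2 ratio of treated over control per line and treatment. Means over lines are given ± limma's moderated SE (n = 3 lines), which also draws on the spread of the other genes tested. Intervals use the same SE. For most members the moderated SE was smaller than the SE of their 3 log2 ratios alone. For *CCNA2* after palbociclib, for example, the moderated SE was 0.60 while the SD over lines was 1.72. The SE of the 3 ratios alone is that SD divided by the square root of 3. Adjusted p are those of limma's moderated test over 11800 genes with a mean level of at least 10, with Benjamini-Hochberg adjustment. An exact permutation test over 3 lines cannot go below p = 0.25. Because RNA came from whole populations, fewer cells in a phase of the cycle and less RNA per cell cannot be told apart.

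*CCND3* itself was left at 24.2% of its scrambled control by the knockdown of NALM-6, at 20.7% by that of RS4;11 and at 31.1% by that of BV-173. After palbociclib it stood at 78.0%, 81.8% and 76.0% of DMSO. Summed levels of 7 B-precursor markers such as *CD79A* and *PAX5* lay between 47100 and 74100 in the 12 groups. Single markers ranged more widely, with *CD22* from 1180 to 22800, *CD79A* from 1870 to 21600 and *PAX5* from 7880 to 17700. T cell markers summed to at most 7.7 and erythroid markers, of which *HBA1* was not listed, to at most 1.63. The summed level of 5 myeloid markers ranged from 92.8 to 1170, mainly through *CSF1R* and *ITGAM*, while *CD14* did not exceed 8.76. It was higher with palbociclib than with DMSO in BV-173 (586 against 236) and NALM-6 (174 against 105) and lower in RS4;11 (550 against 641). With *CCND3* shRNA against scrambled shRNA it was 131 against 92.8 in NALM-6, 1170 against 972 in RS4;11 and 261 against 272 in BV-173. Its part in the results below was not tested.

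All 10 genes were lower than their control in each line, after knockdown and after palbociclib, that is in 30 of 30 pairs of gene and line for each treatment. After knockdown, levels stood between 24.4% and 87.3% of the control. Palbociclib left as little as 1.62% of the control level, for *CCNB2* in RS4;11, while *CCNE1* kept between 59.4% and 87.9%. The test over lines called 9 of 10 genes lower after knockdown and 9 of 10 lower after palbociclib, *CCNE1* being the exception both times. In the background, 4.69% of the genes tested were called lower after knockdown and 9.55% after palbociclib. The calls after palbociclib, though not the decreases, were lost when NALM-6 was left out. That fit also has fewer lines, and why the calls were lost was not tested. Without that line no gene passed, although 3191 genes had an unadjusted p under 0.05. The 9 members then had adjusted p from 0.0728 to 0.118. Their mean log2 ratios were then -4.1 for *CCNB2*, -3.86 for *CCNA2*, -3.85 for *CDC25C*, -3.24 for *CDK1*, -2.92 for *CCNE2* and -2.06 for *CDK2*. Smaller decreases than with all 3 lines were left for *CCNB1* at -2.46, *CDC25A* at -2.03 and *CDC25B* at -1.53. In limma without a trend of the variance on level, no gene passed after knockdown, with 2848 genes at an unadjusted p under 0.05 and adjusted p of the 9 members from 0.0608 to 0.072.

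**Figure D1:**
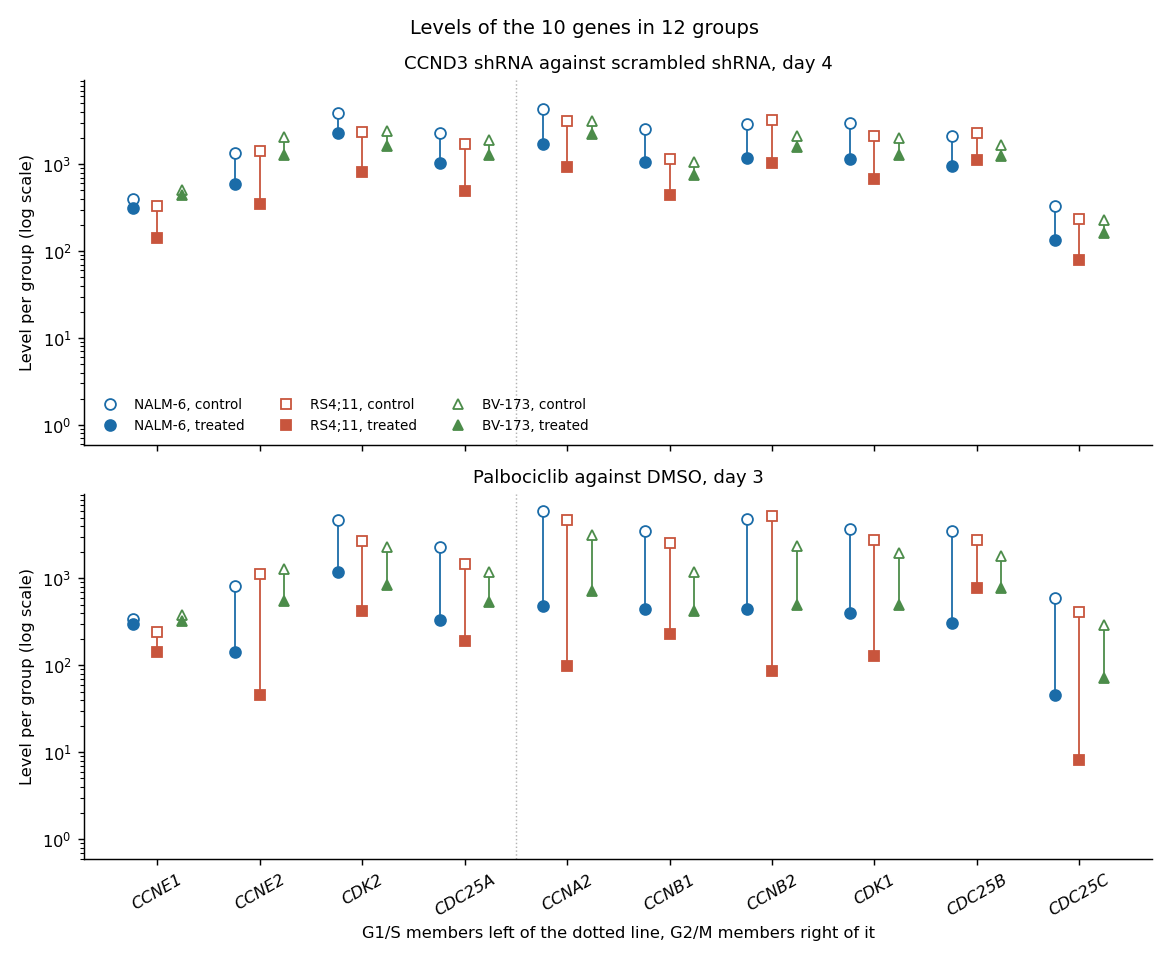
Level per group (log scale) of the 10 genes in the 12 groups, knockdown above and palbociclib below. Open symbols are controls, filled symbols are treated groups, and lines join the 2 groups of 1 cell line. The filled symbol lies below the open one in every pair, and the lowest is *CDC25C* in RS4;11 with palbociclib, at 8.18.

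The E-type cyclins are the partners of CDK2 at the start of S phase, and their values differed. *CCNE1* was at 392 with scrambled shRNA and 316 with *CCND3* shRNA in NALM-6, at 328 and 141 in RS4;11 and at 508 and 444 in BV-173. In the palbociclib arm its levels were, with DMSO and with the drug, 342 and 301 in NALM-6, 241 and 143 in RS4;11 and 377 and 327 in BV-173. Only RS4;11 went past a fold of 1.5, under both treatments. The mean log2 ratio was -0.58 ± 0.22 after knockdown (adjusted p = 0.154) and -0.38 ± 0.19 after palbociclib (adjusted p = 0.220). The 95% interval ran from -1.09 to -0.06 after knockdown and from -0.86 to 0.10 after palbociclib. These intervals are not adjusted for the number of genes tested.

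*CCNE2* was the lower of the E-type cyclins relative to its control in each of the 6 comparisons. Its levels with scrambled and *CCND3* shRNA were 1348 and 597 in NALM-6, 1413 and 344 in RS4;11 and 2056 and 1262 in BV-173. For DMSO and palbociclib they were 808 and 142, 1116 and 46.1, and 1290 and 546 in the same order of lines. RS4;11 thus kept 4.13% of its *CCNE2* level under palbociclib and BV-173 kept 42.3%. *CCNE2* fell by 1.30 ± 0.24 on the log2 scale after knockdown (adjusted p = 0.0269) and by 2.78 ± 0.59 after palbociclib (adjusted p = 0.0348). The call after palbociclib was lost in limma without the variance trend (adjusted p = 0.0598). Per kilobase of transcript, *CCNE2* was the more abundant E-type cyclin in all controls, at 1.67 to 3.28 times *CCNE1*. With palbociclib this ratio of levels per kilobase was 0.335 for NALM-6, 0.228 for RS4;11 and 1.18 for BV-173, so that the order of the pair turned in NALM-6 and RS4;11. After knockdown it stayed above 1, at 1.34, 1.73 and 2.02. No spread over samples is known for these ratios.

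*CCNA2* encodes cyclin A2, which pairs with CDK2 in S phase and with CDK1 in G2. Its level was 4317 with scrambled and 1717 with *CCND3* shRNA in NALM-6, 3149 and 922 in RS4;11 and 3120 and 2227 in BV-173. With DMSO and palbociclib it was 6010 and 480 in NALM-6, 4691 and 98.1 in RS4;11 and 3144 and 712 in BV-173. Few genes were lower still relative to DMSO: 0.241% of those compared for NALM-6, 0.432% for RS4;11 and 0.566% for BV-173. The mean log2 ratio was -1.20 ± 0.22 after knockdown (adjusted p = 0.0290) and -3.79 ± 0.60 after palbociclib (adjusted p = 0.0179).

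The B-type cyclins activate CDK1 for mitosis. *CCNB1* levels with scrambled and *CCND3* shRNA were 2535 and 1055 in NALM-6, 1130 and 442 in RS4;11 and 1046 and 751 in BV-173. Under DMSO and palbociclib they were 3489 and 449, 2525 and 228, and 1169 and 427. *CCNB1* was thus the cyclin B that kept the larger share under palbociclib, from 9.04% in RS4;11 to 36.5% in BV-173. Its mean log2 ratio was -1.03 ± 0.18 after knockdown (adjusted p = 0.0258) and -2.63 ± 0.38 after palbociclib (adjusted p = 0.0158).

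*CCNB2* levels were 2862 and 1186, 3200 and 1028, and 2108 and 1566 with scrambled and *CCND3* shRNA, in the same order of lines. In the palbociclib arm they were 4817 and 446, 5255 and 85.1, and 2369 and 497. The shares left under palbociclib were 9.26%, 1.62% and 21.0%. The mean log2 ratio was -1.11 ± 0.22 after knockdown (adjusted p = 0.0314) and -3.88 ± 0.65 after palbociclib (adjusted p = 0.0210). Per kilobase, *CCNB2* exceeded *CCNB1* in 11 of 12 groups. The exception was RS4;11 with palbociclib, where the ratio of levels per kilobase was 0.519 against 2.89 with DMSO.

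*CDK2* (chr12:55966830-55972789) is the kinase of cyclins E and A. It was at 3876 with scrambled and 2300 with *CCND3* shRNA in NALM-6, at 2368 and 820 in RS4;11 and at 2432 and 1597 in BV-173. The levels with DMSO and palbociclib were 4645 and 1195, 2699 and 423, and 2295 and 843. Between 15.7% and 36.7% was left under palbociclib. Its log2 ratios under palbociclib had an SD of 0.62 over lines, the smallest of the 9 genes called, and the other 8 ranged from 0.99 to 1.89. The mean log2 ratio was -0.96 ± 0.18 after knockdown (adjusted p = 0.0297) and -2.03 ± 0.24 after palbociclib (adjusted p = 0.0124).

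*CDK1* (chr10:60778331-60794852) is the mitotic kinase. Its levels with scrambled and *CCND3* shRNA were 2945 and 1139 in NALM-6, 2122 and 675 in RS4;11 and 1976 and 1262 in BV-173. With DMSO and palbociclib they were 3692 and 401, 2786 and 127, and 1981 and 490. *CDK1* had the lowest adjusted p of the 10 genes after knockdown, with a mean log2 ratio of -1.22 ± 0.19 (adjusted p = 0.0225), and it fell by 3.23 ± 0.43 after palbociclib (adjusted p = 0.0141). Per kilobase, *CDK1* and *CDK2* were nearly level in all controls, at a ratio of 0.913 to 1.24. With palbociclib the ratio of *CDK1* to *CDK2* per kilobase was 0.403 for NALM-6, 0.360 for RS4;11 and 0.699 for BV-173. After knockdown it was 0.595, 0.988 and 0.950.

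**Figure D2:**
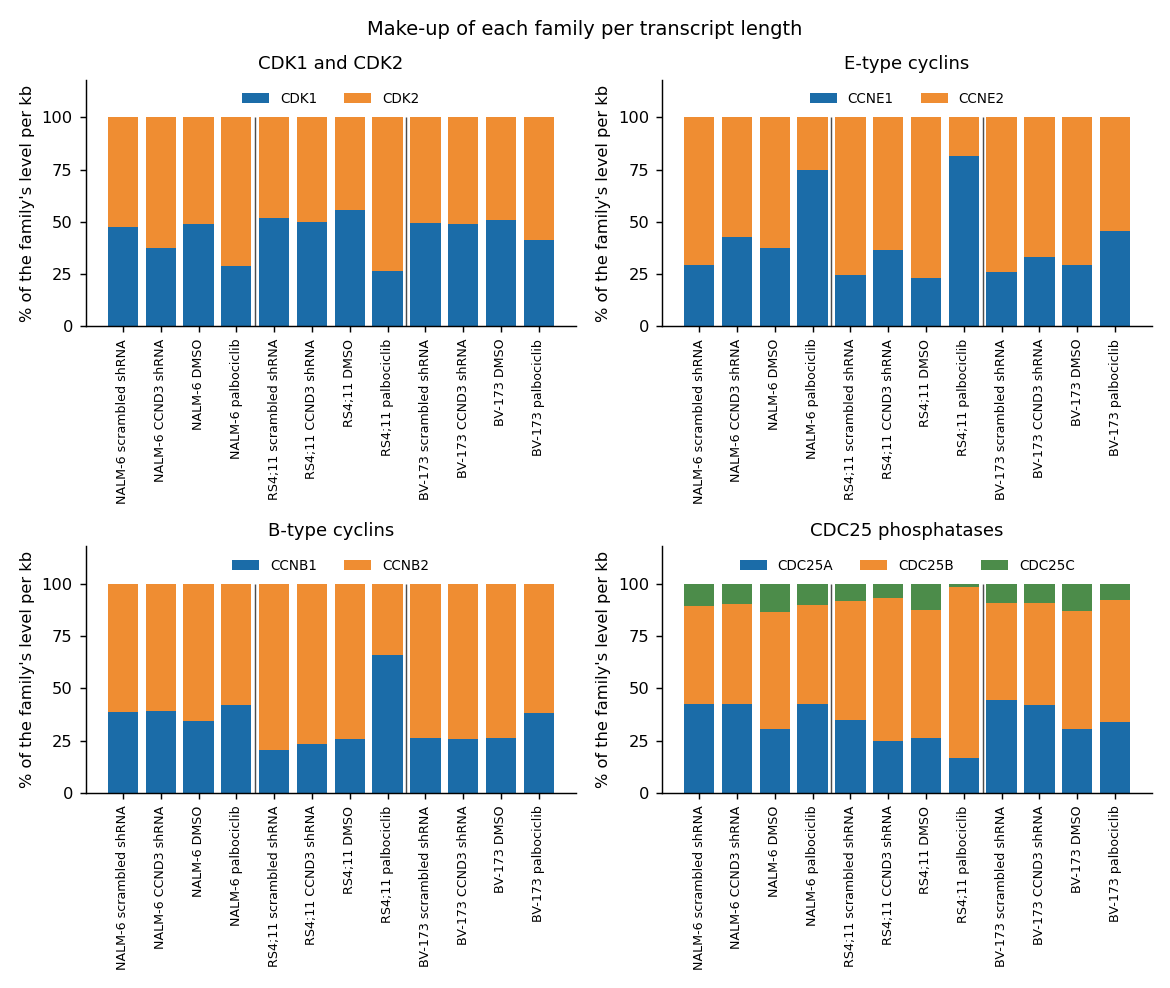
Share of each family's summed level per kilobase of transcript held by each gene, in the 12 groups, with vertical lines between the cell lines. The bars of *CCNE1* and *CDK2* take up more of the total with palbociclib than with DMSO in all 3 lines, and in RS4;11 with palbociclib *CCNE2* makes up 18.6% of the E-type cyclins against 76.7% with DMSO.

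CDC25A is the phosphatase of the G1/S transition. *CDC25A* levels with scrambled and *CCND3* shRNA were 2259 and 1020 in NALM-6, 1704 and 493 in RS4;11 and 1885 and 1283 in BV-173. Under DMSO and palbociclib they were 2284 and 335, 1459 and 192, and 1175 and 534. NALM-6 and RS4;11 kept similar shares under palbociclib, 14.7% and 13.2%, and BV-173 kept 45.5%. The mean log2 ratio was -1.16 ± 0.22 after knockdown (adjusted p = 0.0290) and -2.28 ± 0.36 after palbociclib (adjusted p = 0.0179).

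CDC25B and CDC25C act on CDK1 at the entry into mitosis. *CDC25B* (chr20:3786951-3806115) was at 2084 and 951 in NALM-6, 2298 and 1121 in RS4;11 and 1641 and 1247 in BV-173 with scrambled and *CCND3* shRNA. DMSO and palbociclib gave 3468 and 309, 2798 and 781, and 1792 and 767. *CDC25B* was the 1 gene of the 10 that was lower relative to control in NALM-6 than in RS4;11, with 8.91% against 27.9% left under palbociclib and 45.6% against 48.8% after knockdown. Its mean log2 ratio was -0.85 ± 0.16 after knockdown (adjusted p = 0.0296) and -2.18 ± 0.42 after palbociclib (adjusted p = 0.0270). Without NALM-6 the adjusted p after knockdown was 0.0757.

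*CDC25C* (chr5:138285265-138338355) was the scarcest of the CDC25 genes per kilobase in all 12 groups. It was at 328 and 133, 233 and 78.6, and 230 and 161 with scrambled and *CCND3* shRNA, in the same order of lines. In the palbociclib arm it was at 596 and 45.7, 408 and 8.18, and 294 and 70.8. The shares left under palbociclib were 7.68%, 2.01% and 24.1%. The mean log2 ratio was -1.13 ± 0.22 after knockdown (adjusted p = 0.0323) and -3.80 ± 0.64 after palbociclib (adjusted p = 0.0206). Without NALM-6 the adjusted p after knockdown was 0.0658. In RS4;11 with palbociclib, *CDC25B* made up 82.0% of the CDC25 level per kilobase, *CDC25A* 16.7% and *CDC25C* 1.21%, against 61.0%, 26.4% and 12.5% with DMSO.

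The lines kept nearly the same order for most genes. RS4;11 showed the largest decrease for 9 of 10 genes after knockdown and for 9 of 10 after palbociclib, with *CDC25B* as the exception in both. BV-173 showed the smallest decrease for all 10 genes after knockdown and for 9 after palbociclib, where *CCNE1* was the exception. The median log2 ratio of the 10 genes after knockdown was -1.60 in RS4;11, -1.22 in NALM-6 and -0.50 in BV-173. After palbociclib it was -3.96, -3.08 and -1.45. Leaving out RS4;11 moved the mean log2 ratio after palbociclib to -2.84 for *CCNB2*, -2.89 for *CCNA2*, -2.88 for *CDC25C*, -2.61 for *CDK1* and -1.87 for *CCNE2*, and leaving out NALM-6 moved that of *CDC25B* to -1.53. With 1 ratio per line no test between lines was possible, and the genes of a line share their libraries. After knockdown, *CCND3* itself stood at 20.7% of its control in RS4;11, 24.2% in NALM-6 and 31.1% in BV-173. After palbociclib it stood at 81.8%, 78.0% and 76.0%. The part of *CCND3* in the order of the lines was not tested.

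Counted within single lines, a decrease of at least 1.5-fold after knockdown was reached by 9 of 10 genes for NALM-6, 10 for RS4;11 and 3 for BV-173. The background shares of genes past this fold were 10.4%, 11.3% and 5.39%. In BV-173 the 3 genes were *CCNE2*, *CDK2* and *CDK1*, and *CDC25A* stood just outside with a fold of 1.47. At a fold of 2 the BV-173 count was 0. After palbociclib the counts were 9, 10 and 9, beside background shares of 17.6%, 16.5% and 14.3%, with *CCNE1* in NALM-6 and BV-173 not reaching the fold.

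**Figure D3:**
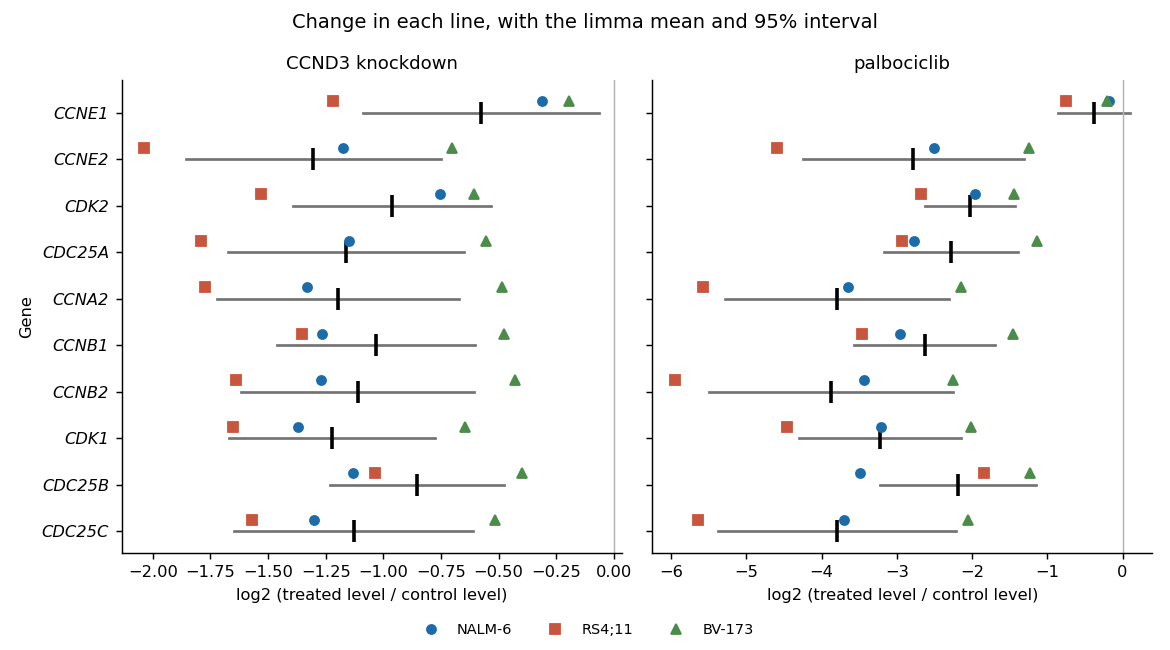
Log2 ratio of treated over control level in each line (symbols), with limma's mean over lines (vertical tick) and its 95% interval (bar). The panels differ in the scale of the x axis. RS4;11 lies leftmost for every gene except *CDC25B*, and the *CCNE1* interval after palbociclib, -0.86 to 0.10, includes 0.

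Knockdown and palbociclib were compared by the difference of their log2 ratios within each line. The decrease was larger with palbociclib in 28 of 30 pairs of gene and line. The 2 others were *CCNE1* in NALM-6 and RS4;11. In BV-173 *CCNE1* was counted among the 28, but its log2 ratios were nearly equal, at -0.196 after knockdown and -0.204 after palbociclib. The test of the difference called 7 of 10 genes, all higher after knockdown than after palbociclib, and 2.89% of the genes tested were called in that direction. *CCNB2* had the largest difference, with a mean log2 ratio of -1.11 after knockdown and -3.88 after palbociclib and a difference of 2.77 ± 0.45 (adjusted p = 0.0345). It was followed by *CDC25C* at 2.67 ± 0.45 (adjusted p = 0.0377), *CCNA2* at 2.59 ± 0.38 (adjusted p = 0.0274) and *CDK1* at 2.00 ± 0.26 (adjusted p = 0.0227). The remaining calls were *CCNB1* at 1.59 ± 0.22, *CDC25A* at 1.11 ± 0.20 and *CDK2* at 1.06 ± 0.12.

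The difference of *CCNE2* was 1.48 ± 0.35 (adjusted p = 0.0749, 95% interval 0.62 to 2.33) and that of *CDC25B* 1.33 ± 0.31 (adjusted p = 0.0712, 0.58 to 2.08), so neither passed. The *CDC25B* difference was 0.82 without NALM-6, and that of *CCNE2* was 0.93 without RS4;11. *CCNE1* had a difference of -0.20 ± 0.17 (adjusted p = 0.517, -0.61 to 0.22). None of the 7 calls was kept without NALM-6, when 39 genes in all still passed, or without the variance trend, when 0 genes passed and 2702 had an unadjusted p under 0.05. The arms also differed in collection day, in transduction and in sorting. These cannot be told apart from the treatment. Control levels of the arms came from tables that were normalised separately: scrambled over DMSO ranged from 0.55 to 1.67 in NALM-6, from 0.447 to 1.36 in RS4;11 and from 0.784 to 1.60 in BV-173 over the 10 genes. This ratio was below 1 in all 18 pairs of G2/M member and line, from 0.447 to 0.998, and above 1 in all 6 pairs for the E-type cyclins, from 1.15 to 1.67. *CDK2* and *CDC25A* were below 1 in 3 pairs and above 1 in 3. Its part in the differences between treatments and between phases was not tested.

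G1/S and G2/M members were set side by side as a description, since 4 and 6 genes are no replicates of a phase. After knockdown their medians were close. The median log2 ratios of G1/S and G2/M members were -0.95 and -1.29 in NALM-6, -1.66 and -1.60 in RS4;11, and -0.58 and -0.48 in BV-173. G1/S members were thus the less decreased in NALM-6 and the slightly more decreased in the other lines. Under palbociclib the G2/M members had the lower median in all 3 lines, at -3.46 against -2.23 in NALM-6, -5.02 against -2.80 in RS4;11 and -2.03 against -1.19 in BV-173. The groups of genes did not overlap in NALM-6, where the least decreased G2/M member was at -2.96 and the most decreased G1/S member at -2.77. They overlapped in RS4;11 through *CCNE2* at -4.60 and *CDC25B* at -1.84. In BV-173 they overlapped through *CDC25B* at -1.23, with *CDK2* at -1.45 and *CCNE2* at -1.24 below it.

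**Figure D4:**
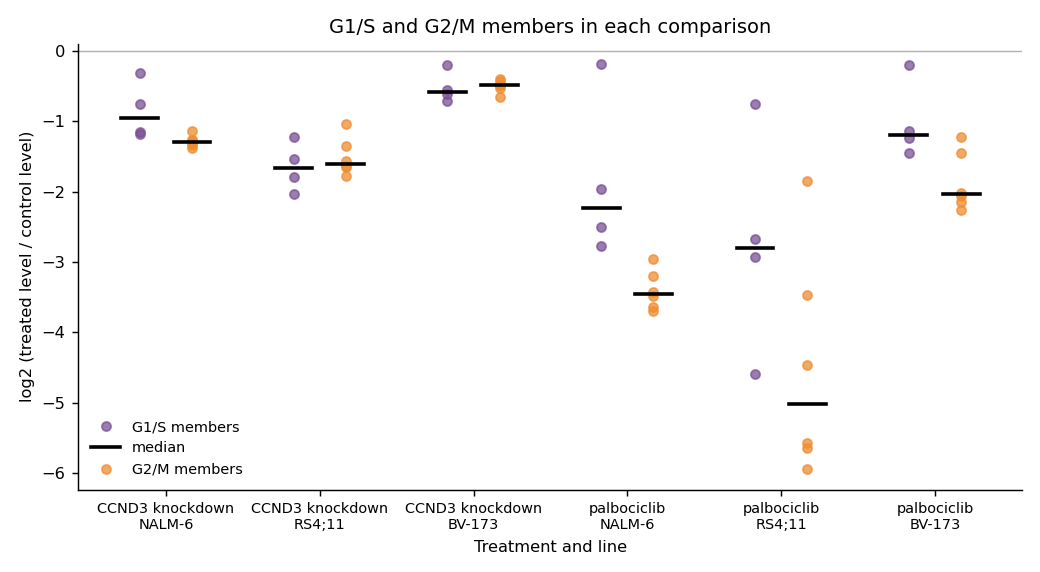
Log2 ratio of treated over control level of the 4 G1/S members and 6 G2/M members in each comparison, with 1 point per gene and a bar at the median. The medians lie within 0.34 of each other in the 3 knockdown comparisons and are 0.85 to 2.22 apart with palbociclib, with the G2/M median the lower.

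Lists of other phase genes were read the same way. After palbociclib, 20 G2/M phase genes such as *AURKB* and *CENPA* had median log2 ratios of -3.42, -5.04 and -1.94 in the order of lines used above, and 20 G1/S phase genes such as *MCM2* and *CDC6* had -2.49, -3.37 and -1.63. After knockdown the medians were -1.42, -1.62 and -0.66 for G2/M and -1.17, -1.80 and -0.53 for G1/S genes. In BV-173 after knockdown the lists thus stood in the opposite order to the members, and in the 5 other comparisons in the same order. The test over lines called 20 of 20 G2/M genes lower under both treatments. Of the G1/S genes it called 18 of 20 after knockdown, all but *SLBP* and *UNG*, and 18 of 20 after palbociclib, all but *RRM2* and *UNG*. After palbociclib the largest G2/M decreases were those of *KIF20A*, a mitotic kinesin, at -4.28 ± 0.96 and of *MKI67* at -4.21 ± 0.88, and the smallest those of *TPX2* at -2.87 ± 0.41 and *BUB1B* at -3.13 ± 0.44. Among G1/S genes the replication licensing factor *CDT1* was lowest at -3.96 ± 0.53. It was followed by *CDC45* at -3.45 ± 0.68 and *TYMS* at -3.45 ± 0.69, which were level. The smallest decreases were those of *SLBP* at -1.13 ± 0.15 and *UNG* at -0.73 ± 0.43. Over all genes tested the median of the mean log2 ratio was 0.00018 after knockdown and 0.012 after palbociclib.

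The kinases that restrain or license CDK1, CDK2 and CDC25, listed together with *BORA*, which is not a kinase, were mostly lower. Knockdown called 6 of 8 lower and palbociclib 8 of 8, with list medians of -1.02 and -2.81. *WEE1*, which phosphorylates CDK1 and CDK2 to hold them inactive, fell by 0.93 ± 0.13 after knockdown (adjusted p = 0.0219) and by 2.64 ± 0.29 after palbociclib (adjusted p = 0.0112). Its relative *PKMYT1* fell by 1.17 ± 0.24 after knockdown and fell by 3.71 ± 0.73 after palbociclib. *CHEK1*, the checkpoint kinase that inhibits CDC25, fell by 1.26 ± 0.22 after knockdown and fell by 2.99 ± 0.32 after palbociclib. *PLK1*, which activates CDC25C, had mean log2 ratios of -1.02 ± 0.21 and -3.77 ± 0.79, both called. *MELK*, a kinase expressed in mitosis, had -1.28 ± 0.22 and -3.84 ± 0.62, and *AURKA*, which activates PLK1, had -1.02 ± 0.19 and -2.47 ± 0.33, all called. *CHEK2* had -0.58 ± 0.18 and *BORA* -0.67 ± 0.17 after knockdown, which did not pass (adjusted p = 0.0925 and 0.0580).

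Fewer calls were made for the CDK-activating kinase and the CKS subunits. None of the 5 passed after knockdown and 2 were lower after palbociclib, with list medians of -0.38 and -0.67. *CKS1B*, a small subunit bound to CDK1 and CDK2, fell by 2.67 ± 0.48 after palbociclib (adjusted p = 0.0232), and *MNAT1*, the assembly factor of the CDK-activating kinase, by 0.67 ± 0.16 (adjusted p = 0.0483). The kinase itself, *CDK7*, had mean log2 ratios of 0.17 ± 0.12 and -0.20 ± 0.18, and its cyclin *CCNH* 0.11 ± 0.13 and -0.37 ± 0.13, and none of these passed.

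Among CDK inhibitors, 5 of 7 could be tested. *CDKN2D* fell by 1.07 ± 0.22 (adjusted p = 0.0356) and *CDKN2C* by 0.66 ± 0.14 (adjusted p = 0.0354) after knockdown, both inhibitors of CDK4 and CDK6. None passed after palbociclib, where *CDKN2C* had -1.65 ± 0.46 (adjusted p = 0.0646). The inhibitors of CDK2 complexes did not pass under either treatment, with *CDKN1A* at -0.21 ± 0.18 and -0.66 ± 0.25 and *CDKN1B* at -0.24 ± 0.15 and -0.54 ± 0.29. Of the D-type cyclins and their kinases, *CCND3* was lower after knockdown, and *CCND2* rose by 2.09 ± 0.34 after palbociclib (adjusted p = 0.0195). *CDK4* and *CDK6* did not pass in either.

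Of the other cyclins, 14 of 15 were tested, and the same 1 fell under both treatments. *CCNF*, the cyclin that serves as a ubiquitin ligase subunit in G2, fell by 0.73 ± 0.12 after knockdown (adjusted p = 0.0242) and by 2.10 ± 0.25 after palbociclib (adjusted p = 0.0125). The list medians were 0.05 and 0.01, close to those of all genes. The transcriptional cyclins *CCNC*, *CCNK*, *CCNT1* and *CCNT2* had mean log2 ratios between -0.39 and 0.16 and none passed.

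Among 9 genes of cyclin degradation, 4 were called lower after knockdown and 5 after palbociclib. *CDC20*, which directs the anaphase-promoting complex to cyclin B, fell by 1.13 ± 0.23 after knockdown (adjusted p = 0.0368) and fell by 3.69 ± 0.85 after palbociclib (adjusted p = 0.0418). *UBE2C*, the ubiquitin-conjugating enzyme of that complex, fell by 1.11 ± 0.21 after knockdown and fell by 3.26 ± 0.60 after palbociclib. The inhibitor of the complex, *FBXO5*, had -1.11 ± 0.17 and -2.42 ± 0.21, both called. *UBE2S*, which extends the ubiquitin chains, had -0.56 ± 0.18 after knockdown (adjusted p = 0.105) and fell by 1.10 ± 0.16 after palbociclib (adjusted p = 0.0158). *SKP2*, a ubiquitin ligase subunit, fell by 0.58 ± 0.13 after knockdown and fell by 0.94 ± 0.17 after palbociclib. *FBXW7*, which marks cyclin E for destruction, had -0.04 ± 0.14 and -0.14 ± 0.15, and neither passed.

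Of 23 transcription factors of the cell cycle, 10 were called lower after knockdown and 10 after palbociclib, and none higher. *E2F1*, *E2F2*, *E2F7* and *E2F8* fell under both treatments, with mean log2 ratios of -1.36 ± 0.27, -1.37 ± 0.23, -1.73 ± 0.19 and -1.51 ± 0.21 after knockdown. After palbociclib they were -2.74 ± 0.43, -2.84 ± 0.22, -3.29 ± 0.41 and -3.97 ± 0.56. *FOXM1* and *MYBL2*, activators of G2/M genes, had -1.31 ± 0.21 and -1.20 ± 0.24 after knockdown and -3.73 ± 0.65 and -3.61 ± 0.81 after palbociclib, all called. *RBL1* and the MuvB subunits *LIN9* and *LIN54* also fell under both treatments. Values of the CCAAT-binding subunits were as follows. *NFYA* fell by 0.63 ± 0.11 after knockdown (adjusted p = 0.0258) and had 0.50 ± 0.16 after palbociclib (adjusted p = 0.0958), and the difference of -1.13 ± 0.13 between treatments passed (adjusted p = 0.0182). *NFYB* fell by 0.97 ± 0.14 after palbociclib (adjusted p = 0.0152) and had -0.45 ± 0.13 after knockdown (adjusted p = 0.0866), and its difference between treatments of 0.52 ± 0.13 did not pass (adjusted p = 0.0811). *NFYC* had a difference of -0.07 ± 0.20 (adjusted p = 0.856). *RB1* and *RBL2* did not pass in either.

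The genes whose 6 log2 ratios were most like the median of the G1/S members were *RFC3*, *RCCD1*, *TUBA1B*, *FANCG* and *POC1A*, at Euclidean distances from 0.22 to 0.48. The median distance over all genes tested was 4.36. Those most like the median of the G2/M members were *CDCA3*, *PRR11*, *GTSE1*, *CDCA5* and *FAM72A*, at distances from 0.39 to 0.48 beside a median of 6.82. *RFC3*, a subunit of the replication clamp loader, had log2 ratios of -1.11, -1.64 and -0.47 after knockdown and -2.34, -2.78 and -1.17 after palbociclib, in that order of lines. *CDCA3*, which like *GTSE1* was also in the list of G2/M phase genes, had -1.38, -1.71 and -0.68 and -3.47, -5.02 and -1.73. *TUBA1B* and *FAM72A* have near-identical copies in the genome, and the split of reads between copies is uncertain.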

How the data were processed

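RNA-seq was analysed in 34 samples of 3 B-ALL lines, grouped by line and treatment as labelled into 12 groups of 2 or 3 samples. According to the study, reads were filtered with SOAPnuke, mapped to hg38 with Bowtie2, quantified with RSEM and compared with DESeq2, in versions not given in the sources used here. The authors' deposited tables, 1 per treatment and line, hold a signal per gene and group, called the level here, on a scale normalised by the authors within each table, besides the transcript length and the authors' own fold changes, p-values and adjusted p-values, which were not used. Per-sample values were not used here. As the tables hold 1 level per group, the design for that case was followed.

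Log2 ratios of treated over control levels were formed per line with no pseudocount and fitted with limma 3.58.1 (R 4.3.3) as an intercept over the 3 lines, with eBayes and a trend of the variance on level, for knockdown, for palbociclib and for their difference. Genes had to be listed in all 6 tables with a mean level of at least 10 over the 12 groups. Calls were made at an adjusted p under 0.05 (Benjamini-Hochberg over 11800 genes). Counts within a line used genes with a mean level of at least 10 in that table and a fold of 1.5. The fit was tested on simulated log2 ratios for the same 11800 genes. Among genes simulated with a log2 change of -1, 94% were recovered for knockdown and 74% for palbociclib, and with -2, 100% and 95%. Of the genes simulated without a change, 0.138% and 0.129% were called. The simulated ratios were drawn independently for each gene, with limma's moderated spread and the same true change in all 3 lines. For most members that spread was smaller than the one observed over lines. Genes of a line did not move together in the simulation either, so these rates need not hold for the data and may be too high.

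Log2 ratios spread less among genes with levels under 1 (SD 0.111 to 0.412 over the 6 tables) than among those from 10 to 100 (0.462 to 1.18), so changes of scarce genes may be understated. Levels per kilobase are the level over the deposited transcript length. Positions and promoter sequences are from RefSeq, GRCh38.p14, and 8 of 10 members had a promoter window. Where the samples of a group were not said to be separate cultures, their number may count technical repeats.

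The members and gene lists were chosen with earlier results of these data known. Of the B-precursor marker list, 1 gene is not reported here. Named were all members, *CCND3*, list genes past the test, and the 5 genes nearest in pattern to each member median. For the 2 phase lists, the 2 largest and 2 smallest mean decreases after palbociclib were named, with ties. *CCNC*, *CCNK*, *CCNT1*, *CCNT2*, *CD14*, *CSF1R* and *ITGAM*, further phase genes and list genes that did not pass were named after their values were seen. Alternatives were another filter, pseudocounts, no variance trend, another threshold, centring on the median of all genes, and each line left out. For the comparison of G1/S with G2/M members they were *CCNA2* left out and means in place of medians.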

Additional observations from a re-analysis of the deposited data

How the results depend on the processing

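No paired analysis was possible because the tables used here give 1 level per group and no value per replicate number. No member changed direction under any alternative run. Filters of 100 or none, pseudocounts of 1 and 10 and centring on the median of all genes left every member's call as it was. The pseudocount of 10 moved the mean log2 ratio of *CDC25C* after palbociclib from -3.80 to -3.29. It moved the difference of *CDC25C* from 2.67 to 2.23, below that of *CCNA2* at 2.54 under the same setting. Without the variance trend, 0 members were called after knockdown and 0 in the difference, with 0 genes called lower and 0 higher in both. After palbociclib that setting called 780 genes lower, 516 higher and 8 members, *CCNE2* being lost. With each line left out in turn, genes called after knockdown ranged from 309 to 733 lower and 117 to 307 higher and members called from 7 to 9. After palbociclib they ranged from 0 to 861 lower, 0 to 422 higher and 0 to 9 members, and in the difference from 3 to 97 lower, 36 to 256 higher and 0 to 6 members. The values of 0 for palbociclib, and of 3, 36 and 0 for the difference, were those without NALM-6. At an adjusted p under 0.1, 984 genes were lower and 681 higher after knockdown, 1767 and 1406 after palbociclib, and 431 and 834 in the difference. At that threshold *CCNE2* and *CDC25B* passed in the difference. At a fold of 2 in place of 1.5, the members counted in BV-173 after knockdown went from 3 to 0. With 3 lines and 1 level per group, changes between lines and changes of low genes are limited by the unknown depth and replicate spread.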
